A study of Mus musculus with 18 samples.

Results

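RNA from the nuclei of tibialis anterior (TA) fibers, a fast muscle of the lower leg, was compared with RNA from the nuclei of soleus fibers, a slow muscle, on 6 of the 18 arrays of the series: 3 of TA nuclei and 3 of soleus nuclei, taken by their labels. All mice were wild-type CD1 females 3 months old, without treatment, and each array carried a single colour (Cy3). Each RNA came from a pool of 5 to 10 intact myofibers that were picked after collagenase digestion and lysed, with the nuclei then spun down and the supernatant kept as cytoplasm. TA nuclei 1, 2 and 3 came from mice 1, 2 and 3. Soleus nuclei 1, 2 and 3 came from pairs of mice, 3 with 4, 5 with 6 and 7 with 8, so TA nuclei 3 and soleus nuclei 1 both hold RNA of mouse 3. The 3 TA nuclei arrays lay on slide 3 and the 3 soleus nuclei arrays on slide 2, so slide and muscle cannot be told apart in this comparison. Arrays of 2 other groups are set beside it because of their slides. The nuclei of extensor digitorum longus (EDL), another fast muscle, lay on slide 2 with the soleus nuclei. EDL nuclei 1, 2 and 3 also came from the same pairs of mice as soleus nuclei 1, 2 and 3. TA cytoplasm 1 (mice 5 and 1) lay on slide 1 with the 3 soleus cytoplasm arrays. TA cytoplasm 2 (mice 5 and 2) lay on slide 3 with the TA nuclei, and TA cytoplasm 3 (mouse 9) lay on slide 4.

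Slow fibers contract for long periods on energy from mitochondria, which burn fatty acids and glucose with oxygen bound by myoglobin. Fast fibers contract quickly, tire sooner and draw more on glycolysis. Each kind of fiber builds its sarcomere, the contractile unit, from its own set of myosins, troponins and tropomyosins, and pumps calcium with its own sarcoplasmic reticulum proteins. The genes of these sets sit in the nuclei along the fiber, so nuclear RNA holds their new transcripts beside the RNAs that stay in the nucleus. The soleus of the mouse is a mixture of slow fibers with fast oxidative ones, and the TA is made mostly of fast fibers.

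A value below is a quantile-normalized intensity on the log2 scale, in which a difference of 1 is a 2-fold difference. Testing needed values from at least 2 of 3 arrays in each muscle, and a probe was called at an adjusted p (limma, Benjamini-Hochberg) of at most 0.05. The fit held all 9 nuclear arrays, so the EDL arrays add to the spread behind each SE and p. Of 43529 probes tested, 21558 were called (49.5%), 8608 higher (19.8%) and 12950 lower (29.8%) in TA. The median difference, TA minus soleus, was -0.11. Without scaling between arrays 2905 were called higher and 26821 lower, with a median of -0.69, so directions are relative to the scaling. On the first principal component, which held 61.5% of the variance among the 9 nuclear arrays, TA nuclei lay at 96.1 to 116 and soleus and EDL nuclei together at -56.8 to -49.3. Against soleus, EDL nuclei had 13.9% of 44568 probes called, 5.73% higher and 8.21% lower, and TA against EDL nuclei had 49.3% of 43303. The EDL and TA differences share the soleus arrays and are given only side by side. The raw median log2 signal was 5.103 to 5.449 on the TA nuclei arrays and 6.025 to 6.112 on the soleus nuclei arrays. Within a group, arrays correlated at 0.988 in soleus and 0.981 to 0.987 in TA across probes, which are not independent. Neat1, an RNA that stays in the nucleus, read 13.36 to 13.48 in soleus nuclei against 10.15 to 10.90 in soleus cytoplasm, and 12.06 to 12.08 in TA nuclei against 8.70 to 9.46 in TA cytoplasm, all 18 arrays normalized together. Xist, which also stays in the nucleus, read 10.76 to 10.92 in soleus nuclei against 2.43 to 5.62 in soleus cytoplasm, but 8.54 to 8.67 in TA nuclei against 6.01 to 7.36 in TA cytoplasm. The fractions of both muscles did not overlap for either RNA, and for Xist they lay closer together in TA than in soleus, a difference that was not tested. The RNA of each array was pooled over fibers, so fewer nuclei of a type and less RNA per nucleus cannot be told apart.

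The slow sarcomere genes were lower in TA nuclei. Of 16 listed genes, each given by its brightest probe, 15 were called lower and none higher, with a median difference of -3.82. Over 16644 coding genes taken the same way, 32% were called lower and 23.8% higher, with a median of -0.09. These shares are the base for the other lists of coding genes as well. In EDL nuclei, on the slide of the soleus nuclei, 15 of the 16 were lower than in soleus, with a median of -3.17.

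Myl2, the regulatory light chain of slow myosin, had the largest difference of the slow sarcomere genes. It read 14.99, 14.91 and 14.98 in soleus nuclei and 6.73, 6.77 and 6.38 in TA nuclei. The groups were far apart, with each group close to its own mean. The difference was -8.34 ± 0.12 (SE, n = 3 per muscle, limma adjusted p = 3.98e-08). EDL nuclei lay between, at 12.50, 12.65 and 12.39, a difference from soleus of -2.45. Myl3, the slow essential light chain, read 15.35, 15.40 and 15.43 in soleus and 9.09, 9.16 and 9.09 in TA, a difference of -6.28 ± 0.07 (adjusted p = 2.07e-08). Myh7, the slow myosin heavy chain, read 15.04, 15.05 and 15.09 in soleus and 9.09, 8.92 and 9.51 in TA, a difference of -5.88 ± 0.15 (adjusted p = 2.19e-07). The 3 arrays of a muscle again lay within 1 log2 unit of each other, and the muscles did not overlap. Myoz2, a Z-disc protein of slow fibers that binds calcineurin, was lower by -6.19 ± 0.15, with 2 of 3 TA arrays well above background, and Tpm3, the slow tropomyosin, by -5.18 ± 0.08.

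The slow troponins were lower as well. Tnnc1, troponin C of slow fibers and heart, read 14.50, 14.42 and 14.53 in soleus and 10.25, 10.15 and 10.51 in TA, a difference of -4.18 ± 0.10 (adjusted p = 2.10e-07), and EDL nuclei lay beside the TA arrays at 10.44, 10.43 and 10.43. Tnni1, slow troponin I, differed by -2.78 ± 0.14 and Tnnt1, slow troponin T, by -2.03 ± 0.14. Here TA was above EDL for Tnni1: TA nuclei read 11.68, 11.11 and 11.55 and EDL nuclei 8.91, 8.75 and 8.83. Myl6b, an essential light chain of slow fibers, was the member not called: it read 10.37, 10.17 and 10.35 in soleus and 10.30, 9.91 and 10.36 in TA (difference -0.11, adjusted p = 0.67), against 5.50, 5.94 and 5.22 in EDL. TA and soleus overlapped for this gene, and EDL was below both.

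**Figure D1:**
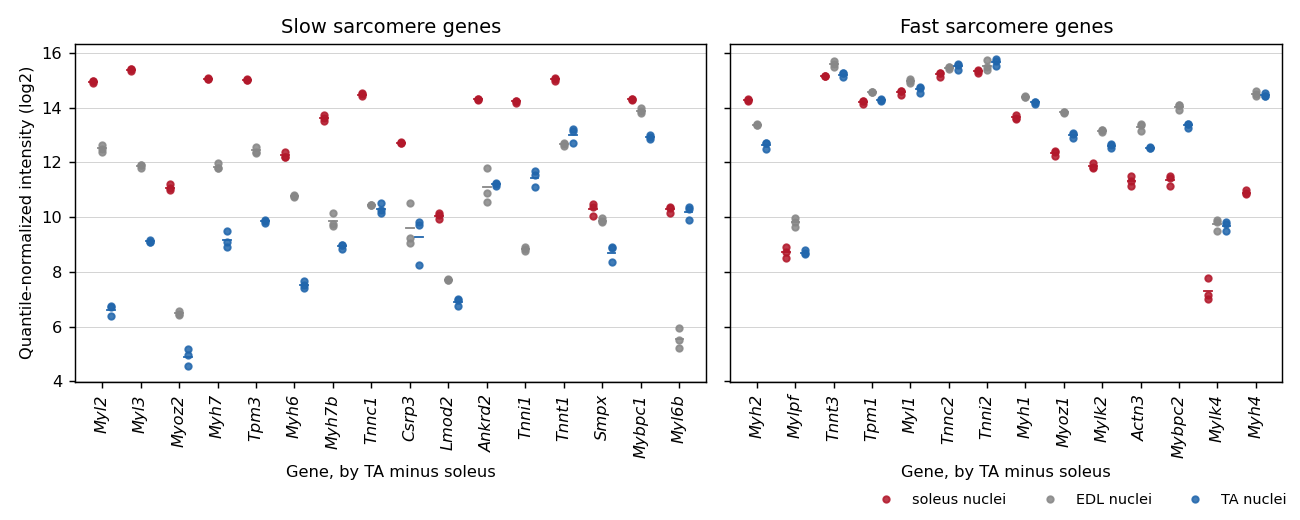
Quantile-normalized intensity (log2) of the 16 slow and 14 fast sarcomere genes on each array of soleus, EDL and TA nuclei; points are arrays, short lines are means of the 3 arrays, and genes run by TA minus soleus. The soleus arrays lie above the TA arrays for all slow genes but Myl6b, and Myh4, the gene farthest to the right, reads 10.83 to 11.01 in soleus and 14.42 to 14.54 in TA.

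The soleus and TA cytoplasm arrays that share slide 1 gave a reading within a slide for the same genes, 1 TA array against 3, with no test. TA cytoplasm 1 lay below all 3 soleus cytoplasm arrays for the 15 slow sarcomere genes called lower in nuclei, by a median of -4.7. Over all 39140 probes with values there, 46.7% lay above all 3 and 22.9% below. Against the same 3 arrays, TA cytoplasm 2 lay above for 43.6% of 39059 probes and below for 27.9%. TA cytoplasm 3 lay above for 28.6% of 38675 probes and below for 32.2%. Among probes called higher in TA nuclei, TA cytoplasm 1 lay above for 4249 of 8115. TA cytoplasm 2 did so for 6099 of 8134 and TA cytoplasm 3 for 5065 of 8132. Among probes called lower, the 3 arrays in turn lay below for 4740 of 11950, 6832 of 11883 and 7273 of 11689. These counts are the base for listed genes called in the same direction. Myl2 read 14.83, 15.12 and 14.62 in soleus cytoplasm and 7.24 in TA cytoplasm 1. Myl6b read 9.24, 10.10 and 7.78 in soleus cytoplasm and 2.91 in TA cytoplasm 1, but 10.97 in TA cytoplasm 2, on the slide of the TA nuclei, and 8.95 in TA cytoplasm 3. Tnni1 and Tnnt1 likewise read 6.58 and 7.70 on TA cytoplasm 1 and 12.02 and 12.90 on TA cytoplasm 2.

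The promoters of Myl3 and Tnnc1, both called lower in TA, are shown as the 250 bases before the RefSeq start. The sequences are from the build GRCm38.p6 and read in the direction of the gene. Capitals mark matches to M-CAT, CATTCC, the site of TEAD factors, on either strand. No match to the MEF2 site was present in either stretch.
Myl3: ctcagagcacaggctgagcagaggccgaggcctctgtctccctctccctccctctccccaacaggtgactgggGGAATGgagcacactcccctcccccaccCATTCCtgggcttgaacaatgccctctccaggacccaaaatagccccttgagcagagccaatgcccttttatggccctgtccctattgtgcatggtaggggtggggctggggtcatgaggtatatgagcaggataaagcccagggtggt
Tnnc1: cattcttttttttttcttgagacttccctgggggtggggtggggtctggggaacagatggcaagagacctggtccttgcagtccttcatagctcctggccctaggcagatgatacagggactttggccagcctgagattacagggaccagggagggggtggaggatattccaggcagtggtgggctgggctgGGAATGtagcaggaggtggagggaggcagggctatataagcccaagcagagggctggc
Myl3 lies at chr9:110763428-110763677 and Tnnc1 at chr14:31208062-31208311, both on the plus strand. Myl3 held 2 M-CAT matches and Tnnc1 1. Of the 16 slow sarcomere promoters 4 held M-CAT, beside 12.6% of 27025 promoters of the same length, and 1 held MEF2, beside 3.01%. An E-box, CANNTG, the site of the MyoD family, was in 15 of the 16, beside 66%. A match is a description of the letters and not a measured site.

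The calcium-handling genes of slow fibers were lower too: 3 of 4 listed were called lower, with a median of -3.32 (EDL minus soleus, -3.35). Sln, sarcolipin, a small inhibitor of the calcium pump, read 12.07, 12.29 and 12.37 in soleus and 4.28, 4.03 and 4.59 in TA, where 1 of 3 arrays was well above background. The difference was -7.94 ± 0.47 (adjusted p = 9.19e-06), and TA cytoplasm 1 read 9.02 against 10.64 to 12.16 in soleus cytoplasm. The SD of Sln was 0.15 in soleus, 0.28 in TA and 1.08 in EDL nuclei, which also enter the SE. Atp2a2, the slow calcium pump, was lower on both its probes, by -4.96 ± 0.13 on the brighter and -6.76 ± 0.14 on the other. Pln, phospholamban, was not called; its arrays overlapped, at 5.74 to 6.26 in soleus and 5.47 to 5.84 in TA.

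The fast sarcomere genes were mostly higher in TA nuclei. Of 14 tested, 9 were called higher, 1 lower and 4 were not called, with a median of 0.44 (0.93 in EDL, 11 higher and 1 lower). Without scaling 4 were higher and 3 lower. Myh4, the myosin heavy chain of the fastest (2B) fibers, read 10.87, 10.83 and 11.01 in soleus and 14.42, 14.54 and 14.44 in TA. The arrays of the muscles did not overlap, and EDL nuclei read 14.52, 14.61 and 14.41, among the TA values. The difference was 3.57 ± 0.09 (adjusted p = 2.10e-07). Mybpc2, fast myosin-binding protein C, was higher by 2.00 ± 0.11, Mylk4, a myosin light chain kinase, by 2.36 ± 0.21, and Actn3, the fast Z-disc actinin, by 1.22 ± 0.11. Myh1, the heavy chain of 2X fibers, was higher by 0.54 ± 0.07; without scaling between arrays its difference was 0.30 and not called.

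Myh2, the heavy chain of fast oxidative (2A) fibers, was the 1 fast sarcomere gene called lower. It read 14.27, 14.26 and 14.31 in soleus and 12.50, 12.71 and 12.70 in TA, a difference of -1.64 ± 0.08 (adjusted p = 4.35e-06), with EDL nuclei between at 13.40, 13.36 and 13.38. Tnnt3, fast troponin T, and Myl1, the fast essential light chain, were not called, with differences of 0.05 and 0.11. In cytoplasm on slide 1, TA cytoplasm 1 lay above all 3 soleus arrays for 7 of the 9 fast genes called higher and below for none. TA cytoplasm 2 was above for 3 of the 9 and below for none, beside 43.6% above and 27.9% below over all probes. TA cytoplasm 3 was above for 3 and below for 2, beside 28.6% and 32.2%. Among all probes called higher in TA nuclei, TA cytoplasm 1 was above for 4249 and below for 1508 of 8115. TA cytoplasm 2 was above for 6099 and below for 553 of 8134, a larger share above than among the 9. TA cytoplasm 3 was above for 5065 and below for 591 of 8132, again a larger share above. Soleus cytoplasm 1 stood apart there, with 11.59 for Myh4 against 7.29 and 7.36 on the other soleus cytoplasm arrays and 13.78 on TA cytoplasm 1.

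Among fast calcium-handling genes 2 of 4 were called higher and 1 lower, and without scaling 1 and 1. Pvalb, parvalbumin, a calcium buffer that speeds relaxation, read 14.81, 14.33 and 14.83 in soleus and 16.36, 16.32 and 16.02 in TA, a difference of 1.57 ± 0.16 (adjusted p = 0.000134) without overlap; its other probe was not called. EDL nuclei, at 16.09 to 16.36, read like TA. Atp2a1, the fast calcium pump, was lower in TA by -0.58 ± 0.07 and higher in EDL by 0.40. With the arrays set to a common 75th percentile its TA difference was -0.15 and not called, and on slide 1 TA cytoplasm 1, at 14.30, lay just above the soleus arrays.

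The promoters of Myh4 and Pvalb are shown as the 250 bases before the start in the same build. Capitals mark matches to M-CAT and to the MEF2 site, which do not overlap here.
Myh4: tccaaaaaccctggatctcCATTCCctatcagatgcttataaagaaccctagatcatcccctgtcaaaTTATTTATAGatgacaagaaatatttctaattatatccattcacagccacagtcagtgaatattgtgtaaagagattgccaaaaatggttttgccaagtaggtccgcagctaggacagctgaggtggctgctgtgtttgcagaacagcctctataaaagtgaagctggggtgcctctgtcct
Pvalb: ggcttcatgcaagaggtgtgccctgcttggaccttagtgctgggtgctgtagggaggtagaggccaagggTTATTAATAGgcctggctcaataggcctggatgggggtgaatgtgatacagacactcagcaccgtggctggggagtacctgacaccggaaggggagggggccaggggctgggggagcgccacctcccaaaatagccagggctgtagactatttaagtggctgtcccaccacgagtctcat
Myh4 lies at chr11:67237562-67237811 on the plus strand and held 1 MEF2 and 1 M-CAT match. Pvalb lies at chr15:78206401-78206650 on the minus strand, at the first of 2 listed starts, and held 1 MEF2 match. Of 9 fast sarcomere promoters matched in the table, 3 held MEF2 and 5 held M-CAT.

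Of 13 sarcomere genes common to all fibers, 10 were called lower and 1 higher, with a median of -0.81 (EDL, -0.09). Actn2, the Z-disc actinin of all fibers, differed by -2.52 and Ttn, titin, by -0.81. Ckm, muscle creatine kinase, was not called, at 13.11 to 13.24 in soleus and 13.17 to 13.26 in TA.

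Transcriptional regulators of the slow and oxidative program were lower in TA. Of 18 tested, 13 were called lower and 2 higher, with a median of -0.78 (EDL, 11 lower and 2 higher, -0.51). Prox1, a homeobox factor needed for the slow program, read 8.45, 8.20 and 8.50 in soleus, and in TA no array was well above background, at 3.21, 3.41 and 3.48. It was at least 15.7-fold higher in soleus, against the lowest signal that was well above background (adjusted p = 1.77e-06). EDL nuclei read 5.01, 5.81 and 5.28. Esrrg, an estrogen-related receptor that drives oxidative genes, was lower by -4.51 ± 0.38, with 1 of 3 TA arrays well above background, and Esrrb, its relative, by -3.49 ± 0.14; a second Esrrb probe was not called. Rcan1, a target and inhibitor of calcineurin, was lower by -3.14 ± 0.12, and Ppara, a receptor that turns on fatty acid oxidation, by -1.85 ± 0.07. Vgll2, a cofactor of TEAD factors, was lower by -1.80 ± 0.08. Ppard, another receptor of this family, was higher by 0.86, but not called without scaling. On slide 1, TA cytoplasm 1 lay below all 3 soleus arrays for 10 of the 13.

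Regulators of the fast program were divided: of 15, 4 were called higher and 6 lower, with a median of -0.23, and TA cytoplasm 1 was above the soleus arrays for 1 of the 4 and below for 3. Maf, a factor that drives Myh4, read 7.39, 7.28 and 7.34 in soleus and 8.73, 8.72 and 8.64 in TA, a difference of 1.36 ± 0.07 (adjusted p = 5.56e-06), and EDL nuclei were higher still, by 2.11. TA cytoplasm 1 was above all 3 soleus arrays for Maf. Hdac5, a histone deacetylase that represses MEF2, was higher by 2.00 ± 0.15, with EDL nuclei at 0.01 from soleus and TA cytoplasm 1 below all 3 soleus arrays. Tbx15, a factor of glycolytic fibers, was lower in TA by -0.74 and higher in EDL by 0.84.

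Genes of glycolysis were mostly higher in TA nuclei and those of fatty acid oxidation mostly lower. Of 25 genes of glycolysis and glycogen, 15 were called higher and 5 lower in TA, with a median of 0.40 (EDL, 18 higher and 4 lower, 0.68). Without scaling 6 were higher and 8 lower. Gpd1, the glycerol phosphate dehydrogenase of the cytosol, read 10.26, 9.96 and 10.10 in soleus and 12.15, 12.19 and 12.07 in TA, a difference of 2.03 ± 0.10 (adjusted p = 4.37e-06). No TA array overlapped a soleus array. Pgk1, phosphoglycerate kinase, was higher by 1.61 ± 0.15 and Pfkfb3, which makes the activator of phosphofructokinase, by 1.16 ± 0.08; a second Pfkfb3 probe was not called. Among the 5 lower was Gbe1, the glycogen branching enzyme (-1.37 ± 0.08). On slide 1, TA cytoplasm 1 was above all 3 soleus arrays for 11 of the 14 higher genes with values.

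Of 30 genes of fatty acid uptake and oxidation, 24 were called lower and 3 higher, with a median of -1.15 (EDL, 22 lower and none higher, -0.99). Pdk4, a kinase that blocks entry of pyruvate into the citric acid cycle, read 11.78, 11.95 and 11.97 in soleus and 7.90, 8.00 and 7.49 in TA, a difference of -4.10 ± 0.22 (adjusted p = 5.83e-06). EDL nuclei, at 9.63, 9.67 and 10.37, lay between. Acadl, a long-chain acyl-CoA dehydrogenase, was lower by -2.69 ± 0.09, Plin5, a coat protein that ties lipid droplets to mitochondria, by -2.59 ± 0.09, and Lpl, lipoprotein lipase, by -2.02 ± 0.10. Plin2, another coat protein of lipid droplets, was called higher, by 2.40 ± 0.26, and EDL nuclei differed from soleus by -0.12 for it. On slide 1, TA cytoplasm 1 lay below all 3 soleus arrays for 23 of the 24 lower genes.

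In the citric acid cycle and its shuttles, 15 of 22 genes were lower and 2 higher, with a median of -0.60 (EDL, 6 lower and 2 higher, -0.13). Idh2, the mitochondrial isocitrate dehydrogenase that makes NADPH, read 13.96, 13.98 and 14.08 in soleus and 10.81, 10.95 and 10.80 in TA, a difference of -3.16 ± 0.08 (adjusted p = 2.06e-07). Ldhb, the lactate dehydrogenase subunit of oxidative fibers, differed by -3.87 ± 0.12; its probe name also carries an Ldhb pseudogene. Mb, myoglobin, was lower by -1.46 ± 0.13, and 4 of the 7 genes of its list on oxygen supply were called lower and none higher, with a median of -0.43.

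Of 91 nuclear genes of the respiratory chain 89 were tested; of these 65 were called lower and 7 higher, with a median of -0.49. In EDL nuclei 12 were lower and 2 higher, with a median of -0.12. With the arrays set to a common 75th percentile 44 were lower and 8 higher. On slide 1, TA cytoplasm 1 lay below the soleus arrays for 39 of 63. Muscle forms of cytochrome oxidase subunits were lower: Cox6a2 by -1.03 ± 0.08 and Cox7a1 by -0.83 ± 0.08. Cox6a1, the form of most other tissues, read 10.81, 10.71 and 10.81 in soleus and 14.08, 14.21 and 14.54 in TA, 3.50 ± 0.12 higher (adjusted p = 1.11e-06). It was also high on TA cytoplasm 2 and 3, at 14.28 and 13.96, but read 9.03 on TA cytoplasm 1, below the 3 soleus cytoplasm arrays.

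**Figure D2:**
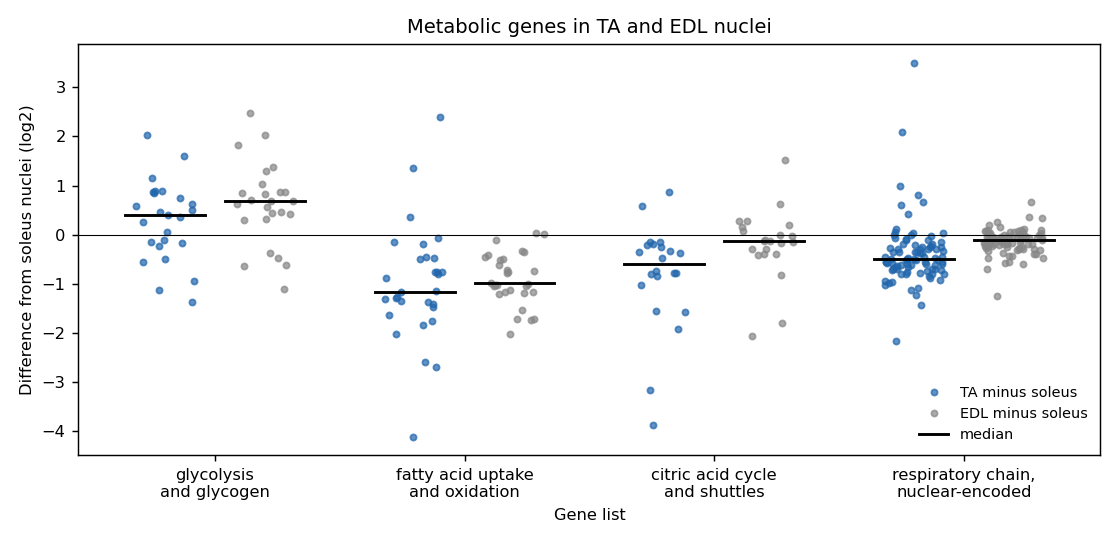
Difference from soleus nuclei (log2) of the genes of 4 metabolic lists, TA minus soleus and EDL minus soleus, both against the same soleus arrays; points are genes by their brightest probe and bars are medians. For TA the medians run from 0.40 in glycolysis to -1.15 in fatty acid oxidation, and Cox6a1 is the highest respiratory chain point, at 3.50.

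Of 17 genes of insulin signalling and glucose uptake, 5 were called higher and 9 lower, with a median of -0.26, and a pair of related proteins were called in opposite directions. Tbc1d4, a Rab GTPase-activating protein that holds back the glucose transporter until insulin acts, read 11.50, 11.49 and 11.60 in soleus and 7.47, 7.39 and 7.52 in TA, a difference of -4.07 ± 0.10 (adjusted p = 1.87e-07). Tbc1d1, its paralog, read 9.03, 8.78 and 8.83 in soleus and 10.61, 10.62 and 10.50 in TA, a difference of 1.70 ± 0.09 (adjusted p = 6.40e-06). EDL nuclei differed from soleus by -1.96 for Tbc1d4 and 1.78 for Tbc1d1, and TA cytoplasm 1 lay below all 3 soleus arrays for Tbc1d4 and above them for Tbc1d1. Prkag3, the AMP kinase subunit of fast fibers, was higher by 1.88 ± 0.14, and Insr, the insulin receptor, was lower by -1.79 ± 0.11.

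Genes of the neuromuscular junction were divided. Of 18 tested 7 were called higher and 7 lower, with a median of -0.10, and without scaling 5 were higher and 11 lower. Chrna1, the alpha subunit of the acetylcholine receptor, read 8.06, 8.09 and 7.89 in soleus and 12.13, 11.85 and 11.96 in TA, a difference of 3.97 ± 0.11 (adjusted p = 4.37e-07), while its other probe was not called. EDL nuclei were below soleus for it, at 6.79, 6.64 and 6.53. Rapsn, rapsyn, which clusters the receptor, was higher by 3.31 ± 0.12, Chrnd, the delta subunit, by 2.63 ± 0.09, and Chrng, the gamma subunit of the fetal receptor, by 1.34 ± 0.14. Chrne, the epsilon subunit of the adult receptor, was lower by -0.66, not called without the arrays that hold RNA of mouse 3, and higher in EDL by 0.83. Colq, the collagen tail that anchors acetylcholinesterase, was lower by -2.39 ± 0.09 (EDL, -1.60). For the 7 called higher, TA cytoplasm 2 was above all 3 soleus arrays for all 7, and TA cytoplasm 1, on slide 1, for 3.

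Of 79 ribosomal protein genes 78 were tested, of which 35 were called higher and 16 lower, with a median of 0.05, and without scaling 23 were higher and 39 lower. In EDL nuclei none was higher than soleus and 5 were lower. Rps10, a protein of the small subunit, read 13.15, 12.98 and 13.04 in soleus and 15.24, 15.34 and 15.26 in TA, a difference of 2.23 ± 0.08 (adjusted p = 1.04e-06). All 35 genes called higher were above the 3 soleus cytoplasm arrays on TA cytoplasm 2, and 1 was above them on TA cytoplasm 1, where 24 were below. Rps10 read 15.39 and 15.36 on TA cytoplasm 2 and 3 and 11.64 on TA cytoplasm 1. TA cytoplasm 3 was above the soleus arrays for 34 of the 35. The part of the slide in this was not tested.

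The 15 coding probes with the largest rise in TA, 1 per gene, differed by 4.42 to 7.21. Raly, an RNA-binding protein, read 5.05, 5.03 and 5.21 in soleus and 12.04, 12.28 and 12.60 in TA, a difference of 7.21 ± 0.15 (adjusted p = 1.14e-07). Cdh15, the cadherin of satellite cells and myoblasts, read 7.20, 7.05 and 7.18 in soleus and 12.46, 12.23 and 12.52 in TA, a difference of 5.26 ± 0.13 (adjusted p = 2.03e-07). In both genes the muscles were far apart and the arrays of a muscle close together. Mymk, myomaker, a membrane protein that fuses myoblasts, was higher by 4.95 ± 0.26. Ccna2, cyclin A of dividing cells, was higher by 5.30 ± 0.36, with 1 of 3 soleus arrays well above background, Ube2c, a ubiquitin-conjugating enzyme of mitosis, by 4.99 ± 0.26, and Rrm2, which makes nucleotides for DNA synthesis, by 4.45 ± 0.24. S100a4, a calcium-binding protein, was higher by 5.93 ± 0.11 and Zyx, zyxin of focal adhesions, by 4.71 ± 0.16. Myog, a factor of differentiating myoblasts, was higher by 1.34 ± 0.10 and Runx1, which rises in denervated muscle, by 2.65 ± 0.22. Pax7, the factor that defines satellite cells, was not called, with arrays that overlapped at 4.85 to 5.41 in soleus and 4.93 to 6.21 in TA.

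None of the 15 leading genes was called higher in EDL nuclei, where Raly differed from soleus by 0.33 (adjusted p = 0.197), Cdh15 by -0.39 (adjusted p = 0.0816) and Mymk by -0.37 (adjusted p = 0.413), with Ccna2, Rrm2 and Asf1b, a histone chaperone of DNA replication, called lower. Ccna2 and Asf1b were not well above background on any EDL array. TA cytoplasm 1 differed from the other TA cytoplasm arrays for them. Raly read 3.79 on it, below the soleus cytoplasm arrays, and 12.49 and 12.25 on TA cytoplasm 2 and 3. Of the 14 leading genes with values there, TA cytoplasm 1 was above all 3 soleus arrays for 4, below for 3 and among them for 7, by a median of 0.02. TA cytoplasm 2 and 3 were above for all 14, by medians of 5.21 and 5.01.

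**Figure D3:**
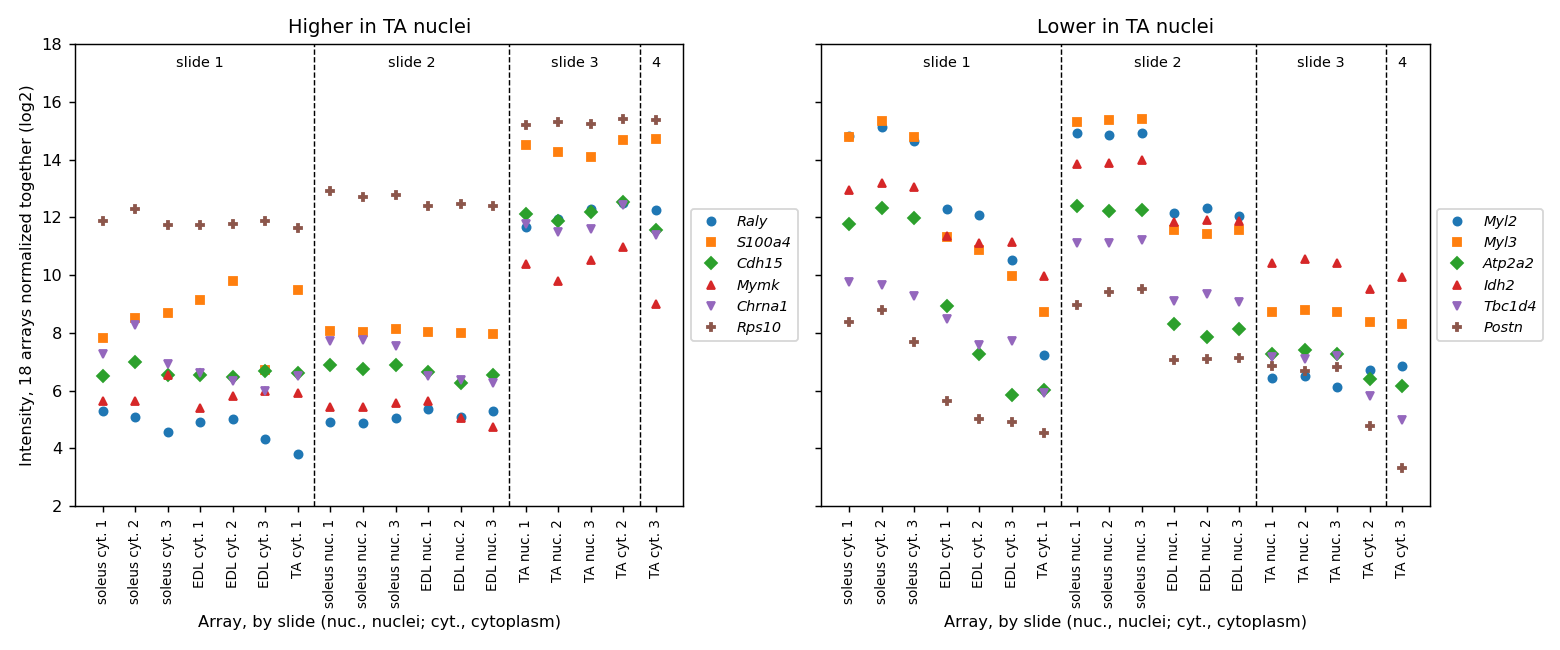
Intensity (log2, all 18 arrays normalized together) of 6 genes higher and 6 genes lower in TA nuclei on each array, ordered by slide; dashed lines part the slides and each point is 1 array. In the left panel the TA nuclei and TA cytoplasm 2 and 3 (slides 3 and 4) are high and TA cytoplasm 1 (slide 1) is not, as for Raly at 3.79; in the right panel TA cytoplasm 1 is low like the other TA arrays, as for Myl2 at 7.24.

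The 15 coding probes with the largest drop held Myl2, Sln, Myh6, Atp2a2, Myl3, Myoz2, Myh7, Tpm3 and Myh7b, and TA cytoplasm 1 was below all 3 soleus arrays for 15 of 15, by a median of -4.6. Myh6, a heavy chain of heart muscle, is much like Myh7 in sequence, and whether its probes also bind Myh7 RNA was not tested. Myom3, an M-band protein of the sarcomere, differed by -4.81 ± 0.07 and Smtnl1, a smoothelin-like regulator of contraction, by -4.69 ± 0.07. Rspo3, a secreted activator of Wnt signalling, differed by -5.105 ± 0.15, with 1 of 3 TA arrays well above background. Olfr325, an olfactory receptor, was not called in EDL nuclei, with a difference of 0.79, and read 10.36 on TA cytoplasm 1 against 10.45 to 11.69 in soleus cytoplasm.

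Some genes had signal well above background in 1 muscle. On all 3 arrays of one and none of the other, there were 340 probes for TA and 1359 for soleus, of 55681 probe names. This mark was set within each array, without scaling. It was passed by 60.1% to 64.2% of spots on the TA nuclei arrays and 65.5% to 68.1% on the soleus nuclei arrays. The part of array brightness in the 2 counts was not tested. Besides Prox1, Lgi1, a secreted neuronal protein, was at least 38.4-fold higher in soleus, with 9.64, 9.56 and 9.82 there, and Wif1, a Wnt inhibitor, at least 12.2-fold (adjusted p = 2.92e-06), although EDL nuclei were above soleus for Wif1 by 1.09. Lgi1 had no value in TA nuclei and was not tested. For TA, Nefl, neurofilament light chain, was at least 26.1-fold higher, with 9.84, 8.35 and 8.29, and Plaur, the urokinase receptor, at least 15.2-fold. Nefl and Plaur had too few values in soleus to be tested. TA cytoplasm 1 read 5.03 for Nefl and 3.89 for Plaur, and TA cytoplasm 2 read 10.21 and 8.42.

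Immediate early genes, which respond quickly to activity or stress, were lower in TA. Of 26 tested 18 were called lower and 3 higher, with a median of -0.81, and in EDL none was lower and 3 were higher. Fos, a subunit of the factor AP-1, read 11.75, 11.72 and 11.80 in soleus and 10.04, 10.14 and 9.99 in TA, a difference of -1.70 ± 0.07 (adjusted p = 2.55e-06). Junb, another AP-1 subunit, was lower by -1.73 ± 0.13, Egr1, a zinc finger factor, by -1.10 ± 0.07, and Myc by -1.72 ± 0.19. On slide 1, 14 of the 18 were below all 3 soleus arrays.

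Chaperones and atrophy genes were mostly lower. Of 17 heat shock genes 16 were tested, 10 lower and 1 higher with a median of -0.90. Hspb6, a small heat shock protein of muscle, differed by -2.10 ± 0.08 (EDL nuclei were lower too, at 13.12 to 13.28 against 14.19 to 14.27), and Hsp90ab1, a cytosolic chaperone, was the 1 called higher, by 2.08 ± 0.08 (EDL, -0.19). Of 24 genes of atrophy and growth 23 were tested, 15 lower and 6 higher with a median of -0.88. Fbxo32, the ubiquitin ligase atrogin-1, was lower by -1.09 ± 0.09, and Cdkn1a, the cell-cycle inhibitor p21, was higher by 1.72 ± 0.10, although none of its other 2 probes was called. TA cytoplasm 1 lay below all 3 soleus arrays for 5 of the 6 higher genes and above for none.

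Of 18 clock genes 16 were tested, 9 lower and 4 higher with a median of -0.51. Of 16 excitation-contraction coupling genes 6 were lower and 1 higher, with a median of -0.39 (EDL, 0.30, 7 higher), and 14 were lower and none higher without scaling. Of 36 genes of limb position 29 were tested, 13 lower and 7 higher with a median of -0.23. Hoxd9, a homeobox gene of the limb, read 9.19, 9.08 and 9.13 in soleus and 6.81, 6.94 and 6.95 in TA, a difference of -2.23 ± 0.08 (adjusted p = 1.06e-06), and EDL nuclei differed by -0.53.

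Of 36 named long non-coding RNAs 31 were tested, of which 2 were called higher, 9 lower and 20 not called, with a median of -0.19. Without scaling 1 was higher and 24 lower. Over all 1313 probes tested in the class of long non-coding RNAs, 226 were called higher and 279 lower, with a median of -0.07. That base counts probes, while the named RNAs are each given by their brightest probe. 2310065F04Rik, known as linc-Myh, an RNA next to the fast myosin genes, read 7.81, 7.81 and 7.62 in soleus and 8.63, 8.81 and 8.68 in TA, 0.96 ± 0.11 higher (adjusted p = 0.000225). Without scaling its difference was 0.33 and not called. EDL nuclei were higher by 2.32, and TA cytoplasm 1 lay among the soleus cytoplasm arrays. Xist, which coats the silent X chromosome in females, was lower by -2.25 ± 0.08, with EDL at -0.23. Mhrt, an antisense RNA of the Myh7 locus, was lower by -2.27 ± 0.22. Neat1, which builds nuclear paraspeckles, was lower by -1.21 ± 0.07 and H19, an imprinted RNA, by -1.09 ± 0.08 (EDL, -0.51 and -1.02). Of the other 6 H19 probes 4 were called lower, by -0.31 to -1.53, and 2 were not called, at 0.24 and 0.20. Malat1, a nuclear speckle RNA, was not called, at 9.67 to 9.78 in soleus and 9.61 to 10.09 in TA.

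The probes for lincRNA regions, intergenic stretches named by their mm9 position, numbered 12465, of which 15.2% were called higher and 28.1% lower. The region at chr16:39984031-40081556, minus strand, read 7.47, 7.52 and 7.56 in soleus and 12.21, 12.27 and 12.35 in TA, a difference of 4.76 ± 0.08 (adjusted p = 5.23e-08), with EDL at -0.12. The region at chr1:20669157-20672643, plus strand, read 8.07, 7.94 and 8.02 in soleus and 3.80, 3.73 and 4.70 in TA, a difference of -3.93 ± 0.25 (adjusted p = 1.26e-05), with EDL at -3.68. In TA 1 of 3 arrays was well above background. Of the 8 leading lower non-coding probes, this region and 5033421B08Rik (-3.74 in TA, -2.26 in EDL) were also called lower in EDL nuclei, 4933417O13Rik was called higher there, by 0.62, and the other 5 were not called. For the 8 leading higher ones TA cytoplasm 1 was above all 3 soleus arrays for 6, by a median of 0.55 over all 8, against 3.64 on TA cytoplasm 2. For the 8 leading lower ones it was below for 2, by a median of -0.08, against -3.6 on TA cytoplasm 2.

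Markers of other cells were read on the same arrays, and their part in the results was not tested. Over the 16644 coding genes taken by their brightest probe, 23.8% were called higher and 32% lower. Of 12 endothelial genes 9 were called higher and none lower in TA, with a median of 0.53 and a summed level, on the log2 scale, of 13.68 to 13.78 in soleus and 14.08 to 14.28 in TA. Without scaling none of the 12 was called higher and 2 lower. Smooth muscle and pericyte genes were higher for 6 of 7, at 12.49 to 12.58 and 14.24 to 14.73 summed, led by Acta2 (3.23 ± 0.15; EDL, -0.04), and erythroid genes for 5 of 5 tested of 7 listed, at 13.04 to 13.14 and 13.94 to 14.05. Without scaling 1 of the 7 smooth muscle genes was called higher and 2 lower, and 3 of the 5 erythroid genes higher and none lower. TA cytoplasm 1 was below the 3 soleus arrays for all 9 endothelial genes, 3 of the 5 erythroid and 4 of the 6 smooth muscle genes. TA cytoplasm 2, on the slide of the TA nuclei, was below for all 9 endothelial, 4 erythroid and 2 smooth muscle genes, and TA cytoplasm 3 for 5, 3 and 1. For the smooth muscle genes TA cytoplasm 2 was above for 4 and TA cytoplasm 3 for 3. Connective tissue genes were lower for 8 of 10, at 16.16 to 16.20 and 15.43 to 15.55 summed. Postn, periostin of the matrix, was lower by -2.61 ± 0.15 (EDL, -2.28) and Col1a1, collagen I, by -1.98 ± 0.08 (EDL, 0.17). Genes of the fiber ends at the tendon were lower for 5 of 6, among them Col22a1, the collagen of that junction (-3.20 ± 0.10), and Tnmd, tenomodulin (-3.88 ± 0.08). Schwann cell genes were lower for 5 of 9, at 11.85 to 11.96 and 11.08 to 11.20 summed. Satellite cell genes were lower for 3 of 7 tested of 9 listed, with Cdh15 the 1 higher. Their sum was 10.53 to 10.68 in soleus and 12.44 to 12.69 in TA. Cdh15 alone read 7.05 to 7.20 in soleus and 12.23 to 12.52 in TA, so it made up most of the TA sum. Macrophage genes were lower for 2 of 10 with 1 higher, and adipocyte genes for 1 of 6 with 2 higher. Without scaling 9 Schwann cell, 5 satellite cell, 7 macrophage and 3 adipocyte genes were called lower, and of these lists Cdh15 alone was higher. TA cytoplasm 1 was below the 3 soleus arrays for all 8 lower connective tissue genes, 4 of 5 tendon and 3 of 5 Schwann cell genes. TA cytoplasm 2 was below for 7, 4 and 4, and TA cytoplasm 3 for 7, 5 and 5. Above them lay 1 Schwann cell gene each on TA cytoplasm 1 and 2, and 1 tendon gene on TA cytoplasm 2.

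**Figure D4:**
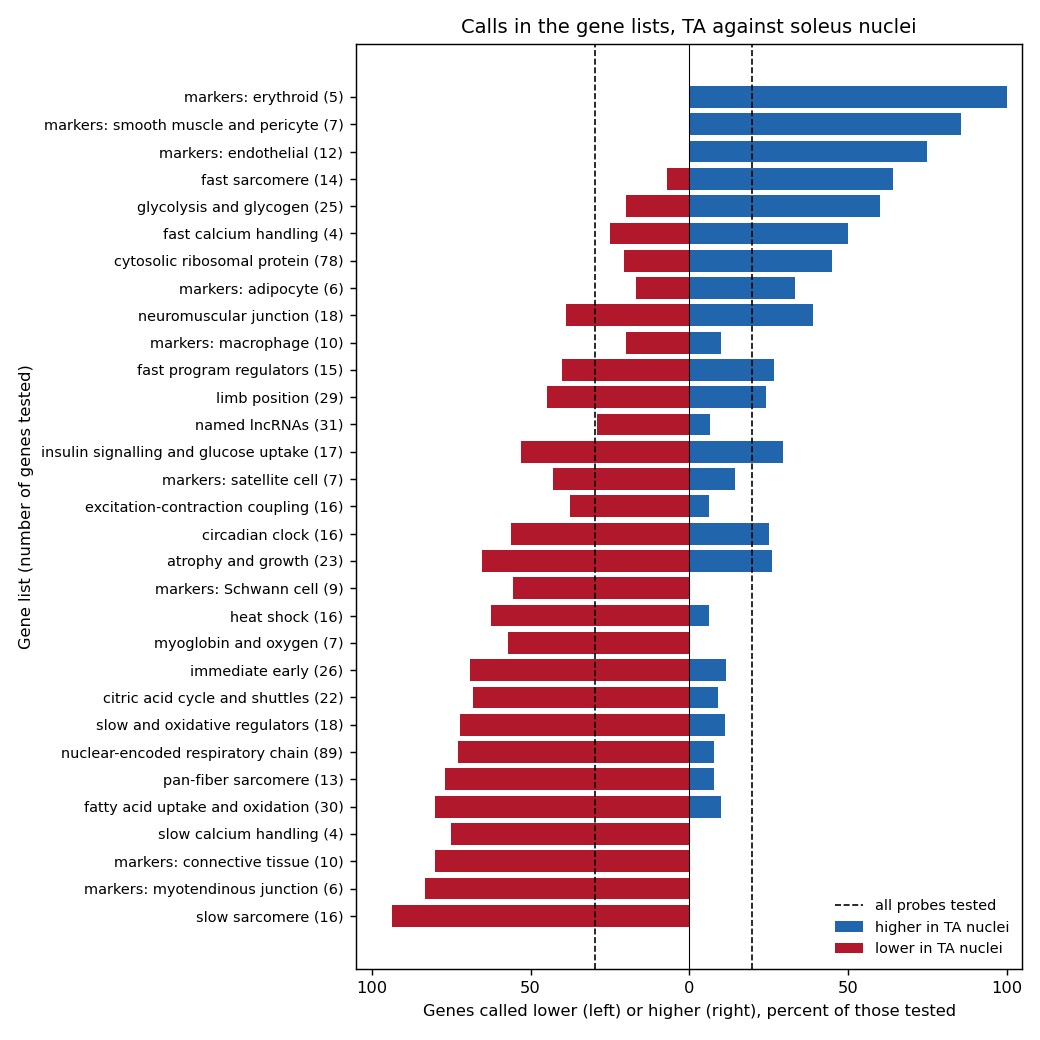
Share of the tested genes of each list called higher (right) or lower (left) in TA nuclei against soleus nuclei, in percent; the number tested stands beside each list and dashed lines mark 19.8% higher and 29.8% lower of all probes tested. Over 16644 coding genes taken by their brightest probe, as the lists are, the shares were 23.8% higher and 32% lower. Slow sarcomere genes have the highest share lower, 15 of 16, and erythroid markers the highest share higher, 5 of 5.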

How the data were processed

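RNA of myofiber nuclei and cytoplasm was hybridised to 18 one-colour Agilent mouse arrays. The values used are the deposited scanner intensities (gProcessedSignal), which the authors obtained with Agilent Feature Extraction 10.7.3.1, background-subtracted within each array and not scaled between arrays. Control spots, outlier spots and spots not positive and significant were left out. The rest was put on the log2 scale, quantile-normalized over the 9 nuclear arrays and averaged by probe name. Group means were fitted with limma 3.58.1 in R 4.3.3 (lmFit and eBayes) with Benjamini-Hochberg adjustment. Tables were read with version 1.17.8 of data.table and with pandas 2.3.3 and numpy 2.4.6 under Python 3.11.15, and plots were drawn with matplotlib 3.10.9. The arrays have no read depth, and their number limits the precision. The study's methods name a t-test for fast against slow single fibers, with p-values from permutation, and no test for this contrast. The form used here, called the methods' t-test, allowed unequal variances and took p from the t distribution without permutation.

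Genes come by their brightest probe from 31 lists (454 genes), 9 of them of cell type markers; the members and lists were chosen with earlier results of these data known. Further genes named were the 15 coding and 8 non-coding probes with the largest difference in each direction, among called probes without overlap and well above background on at least 1 array of each muscle, and the 6 largest bounds of each direction. A bound, written as at least N-fold, sets the mean of the bright muscle against the lowest signal well above background where no array of the other muscle passed that mark. Gene names are those of the array design, and 31257 of 55681 probe names matched a RefSeq gene. Cytoplasm values and nuclear values set beside them came from all 18 arrays normalized together, with no test. Replicate numbers did not pair TA with soleus nuclei, since same-numbered arrays came from different mice, so no block was used. Deviations of same-numbered arrays correlated at -0.02 to 0.01. Those of TA nuclei 3 and soleus nuclei 1, which share mouse 3, correlated at 0.009. EDL and soleus nuclei of the same number came from the same mice. The comparison of EDL with soleus was fitted without that pairing. The deposited series matrix, whose intensities the authors had quantile-normalized between arrays and in which 3687 features had a value on all arrays, served as an alternative. The fit was tested on simulated data with the probe means and spreads of these arrays (39262 probes, 200 changed). It recovered 64% of probes changed by 1 on the log2 scale, 88.5% of those changed by 2, and none of those changed by 0.5. Of its calls 6.57% were false at a change of 1 and 8.76% at 2. The simulation held no slide effect and far fewer changed probes than were called here, so these shares do not carry over.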

Additional observations from a re-analysis of the deposited data

How the results depend on the processing

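In all 21 other settings that gave a value for Myl2, Myl3, Myh7, Tnnc1 and Myh4 the direction of these genes was kept. Some of these settings, such as the methods' t-test, kept the same group means, so the direction could not change in them. Against 21558 probes called and 39.9% of them higher in TA, the fit of all 18 arrays called 9035 and the methods' t-test 12473 after Benjamini-Hochberg and 28 after Bonferroni adjustment, 28.6% of them higher. The deposited matrix, with 3668 features tested, called 1476, 47.5% higher. The share higher was 43.9% with 75th percentile scaling, 9.77% without scaling, 40.6% with normexp, 31.6% where signal well above background was required and 48.1% without a flag filter. Where each muscle's nuclear arrays counted as 1 sample and the cytoplasm arrays gave the spread, 19 probes were called by limma, 0% of them higher, and 2269 passed an unadjusted p of 0.05. Leaving out 1 array in turn called 18653 to 20223 probes, 37.1% to 44.3% higher. Without both arrays that hold RNA of mouse 3, a setting chosen after seeing the data, 17235 were called, 38.7% higher. The replicate block, though the numbers do not pair TA with soleus nuclei, called 19910 probes, 39.7% higher, and changed no call of a named probe. Without scaling, Tnnt3 turned to -0.39, Ckm to -0.32 and Malat1 to -0.44. Of 116 named probes, 103 lost their call under the methods' t-test with Bonferroni adjustment, 96 where each muscle's nuclear arrays counted as 1 sample, 12 with all 18 arrays, 3 under the methods' t-test with Benjamini-Hochberg adjustment, 1 with 75th percentile scaling (Atp2a1) and 3 without scaling (Myh1 at 0.30, Ppard at 0.24 and 2310065F04Rik at 0.33), Chrne lost it without the mouse 3 arrays (-0.60), and none lost it when 1 array was left out. The causes were not tested.

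Slide and muscle cannot be told apart in the nuclei, and no setting here changes that. The slide 1 readings rest on 1 TA array of another fraction. Probes near background, and differences smaller than the spread between arrays, have little weight at 3 arrays a muscle.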
